A study of Mus musculus with 5 samples.

Results

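The genes described here encode the constitutive 26S proteasome. They were chosen by symbol alone, as every gene named Psm with a letter from a to g and a number, and Psmb8, Psmb9, and Psmb10, which encode the subunits of the immunoproteasome, were left out. This gave 45 of the 24421 genes in the deposited tables. By what their products are known to do, 8 are alpha and 8 are beta subunits of the 20S core, 6 are ATPases of the 19S base, 3 are other subunits of the base, 8 belong to the 19S lid, 5 are activators or an inhibitor, and 7 are assembly chaperones.

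The proteasome is the protease that removes most short-lived and damaged proteins of the cytosol and nucleus. Its 20S core is a barrel in which rings of beta subunits carry the cutting sites and outer rings of alpha subunits form the gate. The 19S particle binds ubiquitin-tagged proteins, unfolds them with its ATPases, and feeds them into the core. Pluripotent cells are known for high proteasome activity, and PSMD11, a lid subunit, has been tied to this activity in human embryonic stem cells.

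RNA was sequenced from 5 mouse libraries, 1 for each group, to learn how stem cells differ from somatic cells and what the loss of Gldc, the glycine decarboxylase of the glycine cleavage system, does to stem cells. The MEF library came from mouse embryonic fibroblasts, taken from mid-gestation CF-1 embryos and grown in DMEM with serum. The V6.5 library came from embryonic stem cells of the line V6.5, of another mouse stock, that had no treatment, and the iPSC library from induced pluripotent stem cells, whose parental cells and reprogramming factors are not given for this library in the sources used here. The labels give both as kept without feeder cells on gelatin with serum replacement and LIF, so cell type, mouse stock, and medium cannot be told apart in a comparison with MEFs. The NTC library came from V6.5 cells with a non-targeting control shRNA and the shGldc library from V6.5 cells with an shRNA against Gldc, both in the pLKO vector. The column of this last library is named for an shRNA that is not among the Gldc shRNAs described, so its target site is not given here. Because each group was 1 library, the differences below have no replicate check, no p-value, and no error.

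Levels are in FPKM as deposited, a fragment count scaled to transcript length and library depth. They are set side by side between genes, although this scaling does not account for GC content or shared sequence. A difference between 2 libraries is given as the log2 ratio of FPKM + 0.1, from which the median of all genes at 1 FPKM or more in either library was taken off. That median was 0.25 for V6.5 over MEF, 0.31 for iPSC over MEF, and 0.04 for both iPSC over V6.5 and shGldc over NTC. A gene is called higher or lower when this centred ratio reached 1.5-fold, which is 0.58 on the log2 scale. V6.5 and NTC are the same line in tables made separately, so the spread of NTC over V6.5 (robust SD of 0.59 over all genes) shows how far single genes lay apart between libraries of this line.

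Low FPKM values placed the depth at about 24600000 fragments in MEF and V6.5, 22100000 in iPSC, 29000000 in NTC, and 28700000 in shGldc. In NTC, a step 2 times as large matched more values (32 against 17), and in shGldc larger steps matched about as many, so their depth is uncertain and may be lower. Gldc was at 74.7 FPKM in NTC and 2.07 in shGldc. The 6 fibroblast markers summed to 7020 FPKM in MEF and to between 4.09 and 48.8 in the others, and the 6 pluripotency markers to 2.83 in MEF and to between 3310 and 5960 in the others. The 8 macrophage markers summed to 177 FPKM in MEF and to between 9.35 and 20.6 in the others, where Cd68 was the one marker of the list at 1 FPKM or more, and C1qc was listed at 0. The 8 interferon-stimulated genes summed to 660 FPKM in MEF and to between 30.9 and 53.5 in the others.

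Several of the genes that stood out most encode beta subunits. The stretch before the start of 3 of them is shown, with patterns of known regulators of proteasome genes marked. Binding was not measured. RefSeq promoter windows of GRCm38.p6, from 250 bases before to 50 bases after a start, were given for 37 of the 45 genes. The printed parts lie before the start and outside annotated exons. In Psmb5 (chr14:54618023-54618245, minus strand) and Psmb6 (chr11:70525107-70525356, plus strand), capitals mark TGACNNNGC, the pattern bound by NRF1 and NRF2 with small Maf proteins. In Psmb3 (chr11:97703184-97703398, plus strand), capitals mark CCAAT, the pattern bound by NF-Y.
Psmb5: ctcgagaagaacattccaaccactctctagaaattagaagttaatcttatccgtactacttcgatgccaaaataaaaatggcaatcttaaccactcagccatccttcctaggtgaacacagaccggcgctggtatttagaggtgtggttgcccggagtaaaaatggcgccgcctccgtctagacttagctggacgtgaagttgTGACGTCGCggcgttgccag
Psmb6: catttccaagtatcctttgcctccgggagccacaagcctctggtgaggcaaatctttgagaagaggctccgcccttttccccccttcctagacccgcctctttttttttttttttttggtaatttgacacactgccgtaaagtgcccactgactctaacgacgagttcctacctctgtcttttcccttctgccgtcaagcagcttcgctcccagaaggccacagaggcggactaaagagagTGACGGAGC
Psmb3: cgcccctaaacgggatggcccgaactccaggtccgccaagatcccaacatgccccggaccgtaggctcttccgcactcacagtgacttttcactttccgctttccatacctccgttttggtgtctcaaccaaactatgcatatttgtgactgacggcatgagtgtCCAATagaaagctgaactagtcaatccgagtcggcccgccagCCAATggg

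On either strand, TGACNNNGC was found in the windows of 6 of the 37 genes (16.2%), against 12.4% of all 27025 windows and 14.9% of the 10152 windows of genes that reached 1 FPKM in any library. These 6 were Psmb5, Psmb6, Psmc6, Psmd9, Psmd12, and Psme4. CCAAT stood in 35.1% of the windows, against 38.0% of all and 39.0% of those of expressed genes. GGGCGG, the pattern of the Sp family, stood in 59.5%, against 35.9% and 65.6%, and TATAAA, the TATA box, in 8.1%, against 14.2% and 7.0%. The shares of the proteasome genes thus lay near those of expressed genes.

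In all 5 libraries, transcripts of the beta subunits were, as a group, the most abundant, and those of the chaperones and of the activators the least. The 7 expressed beta subunit genes had a geometric mean of 192 FPKM in MEF, 329 in V6.5, 428 in iPSC, 345 in NTC, and 403 in shGldc. The 7 alpha subunit genes other than Psma8 lay lower, at 103, 159, 142, 128, and 133 FPKM in the same order. The 19S genes resembled the alpha subunits in level, with 97.1, 143, 142, 146, and 154 FPKM over 17 genes. The 7 chaperone genes lay between 23.2 FPKM in MEF and 33.2 in NTC, and the 5 activator or inhibitor genes between 32.4 in MEF and 41.3 in V6.5. All 45 genes together made up 0.95% of the FPKM sum in MEF, 1.24% in V6.5, 1.32% in iPSC, 1.34% in NTC, and 1.43% in shGldc.

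**Figure D1:**
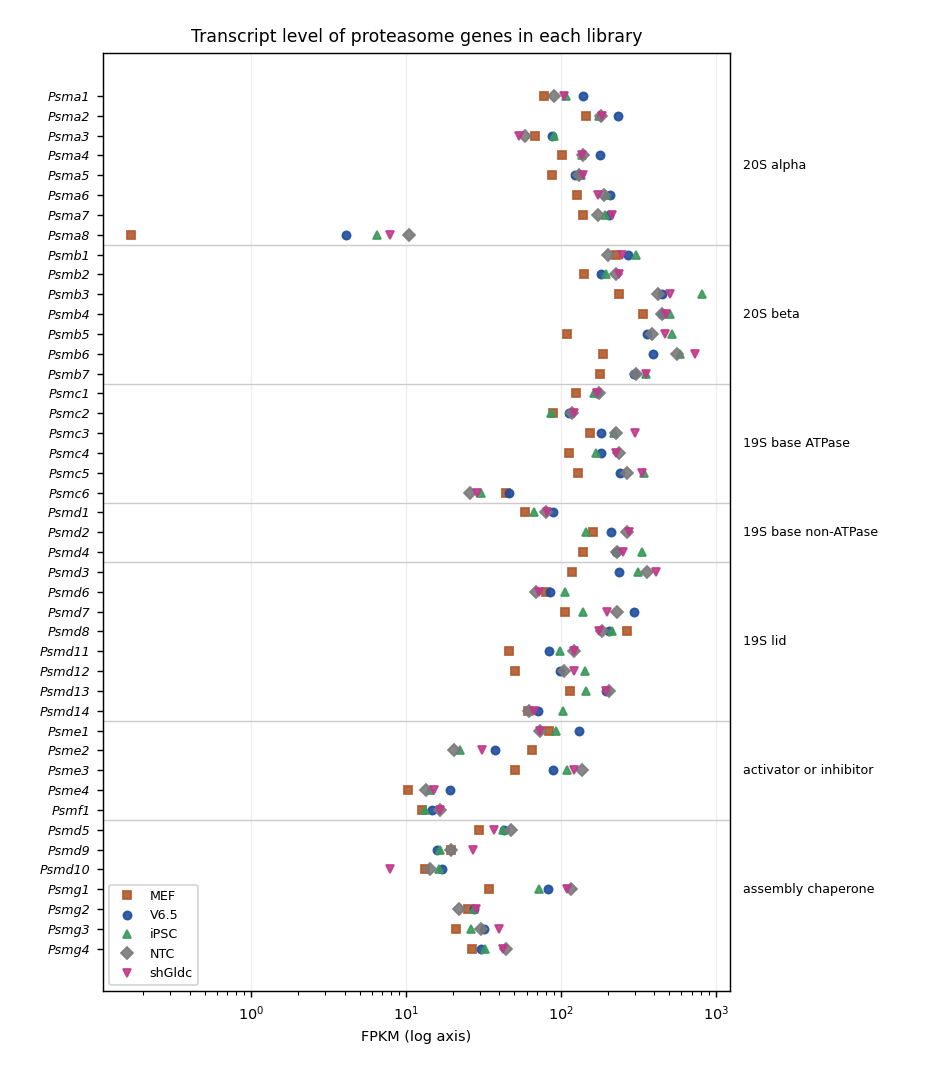
FPKM (log axis) of 44 proteasome genes in the 5 libraries, 1 point per library, by structural group; Psmb11 is left out. Beta subunit genes spanned 110 FPKM (Psmb5 in MEF) to 809 FPKM (Psmb3 in iPSC), and Psma8 lay apart at 0.168 FPKM in MEF.

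Subunits of 1 ring, which are needed in equal numbers, were not level in their transcripts. Among the 7 alpha subunit genes, the highest was 2.16 times the lowest in MEF and 3.99 times in shGldc. Psma3, a gate subunit of the alpha ring, was the lowest of them in every library, at 67.5 FPKM in MEF, 88.0 in V6.5, 90.3 in iPSC, 58.4 in NTC, and 53.6 in shGldc. The 6 ATPases of the base form a single ring, yet their highest and lowest genes differed by 3.44 times in MEF and by 5.18 to 11.54 times in the other libraries. The low end was Psmc6, at 44.3 FPKM in MEF, 46.4 in V6.5, 30.6 in iPSC, 25.9 in NTC, and 28.8 in shGldc. The high end in the 4 stem cell libraries was Psmc5, at 240 FPKM in V6.5, 343 in iPSC, 267 in NTC, and 333 in shGldc. In the lid, Psmd8 was highest in MEF at 265 FPKM, Psmd7 in V6.5 at 296 FPKM, and Psmd3 in the other libraries at 314 to 410 FPKM.

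Relative to MEFs, the proteasome genes as a whole lay slightly above the median of all genes in V6.5 and iPSC, and few of them moved far. In V6.5 over MEF, 44 genes were kept, with a median centred log2 ratio of 0.35 and a robust SD of 0.39, where all genes had a robust SD of 1.6. The median was 0.60 without centring and 0.16 without genes that overlap another gene or share sequence. Of the 44, 11 (25%) were called higher and 2 (4.5%) lower, where 34.3% of all genes were called higher and 35.4% lower. In either direction, these were 29.5% of the proteasome genes and 69.7% of all genes. In iPSC over MEF, the median was 0.14 with a robust SD of 0.41, against 1.52 for all genes. Here 12 (27.3%) were called higher and 3 (6.8%) lower, where 34.0% of all genes were called higher and 34.8% lower, and in either direction 34.1% and 68.8%. With centring, each share of the proteasome genes was smaller than that of all genes. Among genes of at least 50 FPKM, a limit chosen after the data were seen, 32.4% of 34 proteasome genes and 69.3% of all genes were called in V6.5 over MEF, and 38.2% and 66.8% in iPSC over MEF. The split between higher and lower depended on the centring. Without it, 23 (52.3%) were higher and 1 lower in V6.5, where 40.7% of all genes were higher and 30.3% lower. In iPSC, 16 (36.4%) were higher and 1 lower, where the shares of all genes were 42.6% and 28.0%. The 76 cytosolic ribosomal protein genes, another set of abundant housekeeping genes, had medians of 0.38 and 0.58 in these comparisons.

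**Figure D2:**
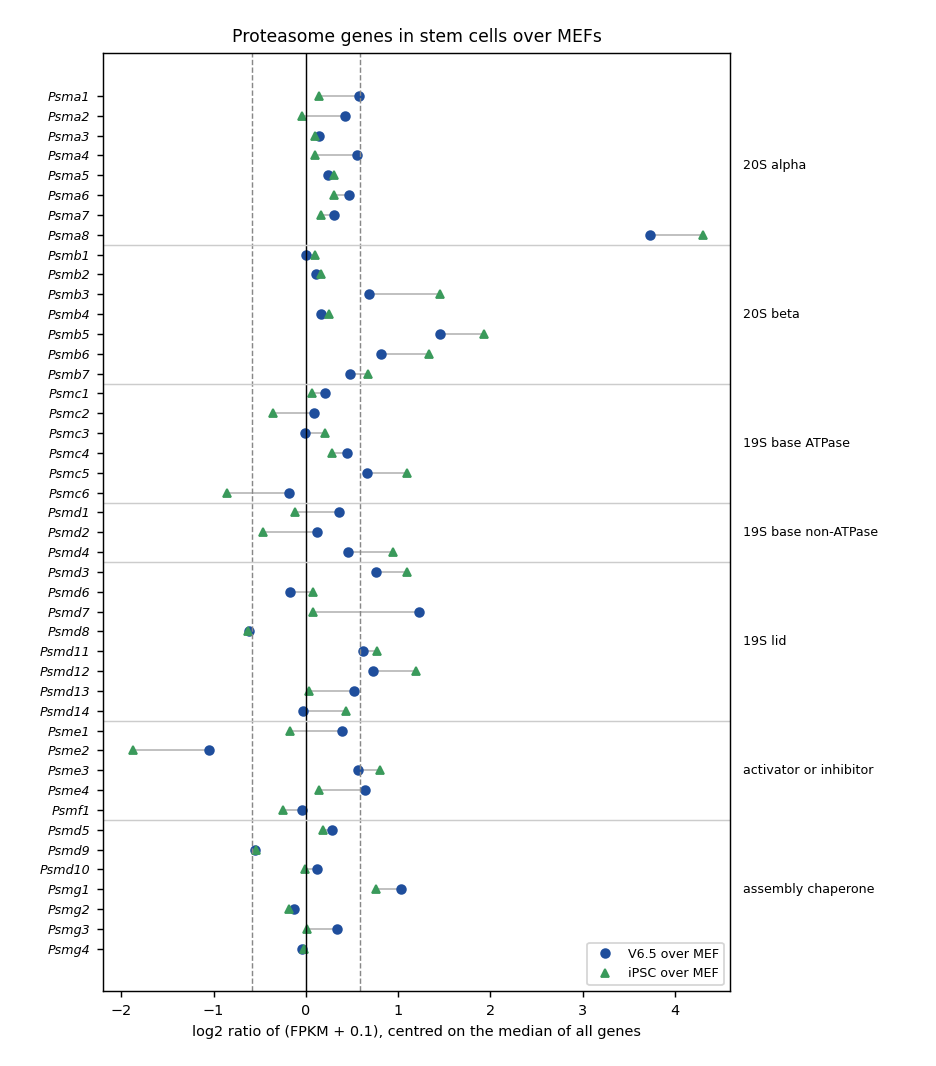
Centred log2 ratio of FPKM + 0.1 over MEF for 44 proteasome genes in V6.5 (circles) and iPSC (triangles), by structural group, with grey lines that join both values of a gene. Dashed lines mark 1.5-fold; 11 genes lay beyond the upper line in V6.5 and 12 in iPSC, and 2 and 3 beyond the lower line. The MEF library is shared by both ratios.

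Both ratios use the same MEF library, so their likeness is no independent evidence. In V6.5, the 11 called higher were Psma8, Psmb3, Psmb5, Psmb6, Psmc5, Psmd3, Psmd7, Psmd11, Psmd12, Psme4, and Psmg1, and the 2 called lower were Psmd8 and Psme2. In iPSC, the 12 called higher were Psma8, Psmb3, Psmb5, Psmb6, Psmb7, Psmc5, Psmd3, Psmd4, Psmd11, Psmd12, Psme3, and Psmg1, and the 3 called lower were Psmc6, Psmd8, and Psme2. Nearest to the upper limit in V6.5 were Psmd11, at 0.62 inside, and Psma1, which missed it before rounding to 0.58, and in iPSC Psmb7, at 0.67 inside, and Psmd14, at 0.43 outside. Nearest to the lower limit were Psmd8 inside (-0.62 in V6.5 and -0.63 in iPSC) and Psmd9 outside (-0.55 and -0.54).

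Of the 3 catalytic subunit genes, 2 were called higher in V6.5 over MEF and all 3 in iPSC over MEF. Of all genes, 34.3% and 34.0% were called higher in these comparisons. Psmb5, whose product carries the chymotrypsin-like site, was at 110 FPKM in MEF, 361 in V6.5, 524 in iPSC, 388 in NTC, and 467 in shGldc. MEF was thus the lowest library by a wide margin, and the centred ratios were 1.46 in V6.5 and 1.93 in iPSC. Psmb5 (chr14:54614119-54618022, minus strand, 899 nt of transcript) has 54.1% of its 50-nt stretches in common with other genes, mainly Gm3375, and holds the 109-nt miRNA gene Mir686. Mir686 was listed at 137 FPKM in MEF and at no more than 0.138 in the other libraries. This is about 366 fragments in MEF beside about 2440 listed under Psmb5. With these added to Psmb5, an alternative chosen after the data were seen, the ratios were 1.26 and 1.73.

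Psmb6, which carries the caspase-like site, was at 187 FPKM in MEF, 393 in V6.5, 585 in iPSC, 564 in NTC, and 738 in shGldc. Its ratios over MEF were 0.82 and 1.33. Psmb7, which carries the trypsin-like site, was at 179 FPKM in MEF, 296 in V6.5, 354 in iPSC, 305 in NTC, and 356 in shGldc, with ratios of 0.48 and 0.67. MEF was the lowest library for all 3 catalytic genes. Psmb3, a beta subunit without a cutting site, was at 237 FPKM in MEF, 450 in V6.5, 809 in iPSC, 425 in NTC, and 506 in shGldc. The 809 FPKM in iPSC were the highest value of any proteasome gene, and 17.8% of the 50-nt stretches of Psmb3 were shared with another gene. The other beta subunit genes Psmb1, Psmb2, and Psmb4 had ratios of 0.00 to 0.25 in both comparisons and were not called.

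None of the 7 broadly expressed alpha subunit genes was called against MEF, although Psma2 (0.67) and Psma6 (0.64) were in V6.5 when centred on the other genes of their own chromosomes. Their ratios lay between 0.14 (Psma3) and 0.58 (Psma1) in V6.5 and between -0.04 (Psma2) and 0.31 in iPSC. Psma7, with a mean of 184 FPKM over the libraries, was at 138 FPKM in MEF, 203 in V6.5, 192 in iPSC, 173 in NTC, and 214 in shGldc.

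Psma8, a copy of Psma7 known from the proteasome of spermatocytes, differed most between MEFs and stem cells. It was at 0.168 FPKM in MEF, about 7.01 fragments, and at 4.11 in V6.5, 6.51 in iPSC, 10.5 in NTC, and 7.83 in shGldc. MEF lay below every stem cell library, with centred ratios of 3.73 in V6.5 and 4.31 in iPSC that a pseudocount of 1 reduced to 1.91 and 2.41. Psma8 still made up a small part of the sum of Psma7 and Psma8, with 0.12% in MEF, 1.98% in V6.5, 3.27% in iPSC, 5.74% in NTC, and 3.53% in shGldc. It shared no 50-nt stretch with another gene and overlapped none. Psmb11, the beta subunit of the thymus cortex, was at 0.00958 FPKM in MEF and 0.0616 in V6.5 and was listed at 0 in the other libraries, so it entered no comparison.

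Of the 9 genes of the 19S base, Psmc5 was called higher in V6.5 over MEF, and in iPSC over MEF Psmc5 and Psmd4 were called higher and Psmc6 lower. Of all genes, 34.3% were called higher in V6.5 over MEF, and 34.0% higher and 34.8% lower in iPSC over MEF. Psmc5, an ATPase, was at 128 FPKM in MEF against 240 in V6.5 and 343 in iPSC, with ratios of 0.66 and 1.10, and the first was not called when centred on the other genes of its chromosome. Psmd4, a ubiquitin receptor, was at 139 FPKM in MEF, 227 in V6.5, 333 in iPSC, 230 in NTC, and 253 in shGldc, with ratios of 0.46 and 0.95. Psmc6, also an ATPase, had ratios of -0.18 in V6.5 and -0.85 in iPSC. Psmd1, a large scaffold subunit, was the lowest of the other base genes in every library, from 58.4 FPKM in MEF to 88.9 in V6.5, and was not called. Psmd2, its counterpart, was not called either, with ratios of 0.12 and -0.47.

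Of the 8 lid genes, 4 were called higher in V6.5, 3 in iPSC, and Psmd8 lower in both. The shares of all genes called higher were 34.3% and 34.0%, and those called lower 35.4% and 34.8%. Psmd11, named above for human stem cells, was at 46.2 FPKM in MEF, 84.1 in V6.5, 98.1 in iPSC, 122 in NTC, and 121 in shGldc. Every stem cell library lay above MEF, with ratios of 0.62 and 0.77, just past the limit in V6.5. Centred on the other genes of its chromosome Psmd11 was not called (0.54 and 0.48). Psmd12, another scaffold subunit of the lid, was at 50.3 FPKM in MEF, 99.0 in V6.5, 143 in iPSC, 105 in NTC, and 122 in shGldc, with ratios of 0.73 and 1.19. Psmd3, also a scaffold subunit, was at 118 FPKM in MEF, 238 in V6.5, 314 in iPSC, 361 in NTC, and 410 in shGldc, with ratios of 0.76 and 1.10. Psmd14, the enzyme that cuts ubiquitin chains off the substrate, was at 61.3 FPKM in MEF and between 62.3 and 103 in the stem cell libraries, and was not called.

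Psmd8 (chr7:29174188-29180701, minus strand), a lid subunit whose gene bears no overlap or shared sequence, went the other way. It was at 265 FPKM in MEF, 204 in V6.5, 213 in iPSC, 183 in NTC, and 175 in shGldc. MEF was the highest library, and the ratios of -0.62 and -0.63 lay just inside the limit. Shfm1 (also Sem1), a lid gene that the choice by symbol left out, was called lower too, at -0.73 in each comparison. Its levels were 179 FPKM in MEF, 128 in V6.5, and 134 in iPSC. Without centring, Psme2 was the one gene called lower in either comparison.

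Among the assembly chaperones, Psmg1 stood alone. Its product helps the ring of alpha subunits to form. Psmg1 was at 34.1 FPKM in MEF, 82.6 in V6.5, 71.9 in iPSC, 116 in NTC, and 110 in shGldc, and its ratios were 1.03 and 0.76. Psmg2, its partner in a heterodimer, did not follow, at 25.1 FPKM in MEF and 21.8 to 28.4 in the stem cell libraries, with ratios of -0.13 and -0.18. Psmg3 and Psmg4, which form a second chaperone of the core, had ratios of -0.04 to 0.34, and the base chaperones Psmd5, Psmd9, and Psmd10 had ratios of -0.55 to 0.28, and none was called.

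Many of the genes called higher lay on the same chromosome. Chromosome 11 holds 8 of the 44 genes (Psmb3, Psmb6, Psmc5, Psmd3, Psmd11, Psmd12, Psme3, and Psme4), and 7 of them were called higher in V6.5 over MEF and 7 in iPSC over MEF. On all other chromosomes together, 4 of 36 were called higher in V6.5 and 5 in iPSC. The median ratio of the 8 was 0.67 in V6.5 and 1.10 in iPSC, against 0.22 and 0.09 for the other 36. The other genes of chromosome 11 (those that reached 5 FPKM in either library) had medians of 0.08 over 784 genes in V6.5 and 0.29 over 807 genes in iPSC, and 35.6% and 39.0% of them were called higher. All 8 lay above the median of the other genes in V6.5 and all but Psme4 (0.14) in iPSC. This split was made after the ratios were seen, and it has no test.

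Chromosome 11 also differed between the stem cell libraries. Its other genes had a median of 0.17 in iPSC over V6.5, 0.27 in NTC over V6.5, and 0.16 in shGldc over NTC, while the medians of the remaining chromosomes other than 8 lay between -0.10 and 0.15 in these comparisons. The 8 proteasome genes had medians of 0.41, 0.40, and 0.16. Of the 6 genes called higher in NTC over V6.5 (15.0% of all genes), 4 lay on chromosome 11, namely Psmb6, Psmd3, Psmd11, and Psme3, and the others were Psma8 and Psmg4. The 3 called lower (18.6% of all genes), Psmc6, Psme1, and Psme2, lay on chromosome 14. These calls depended on the centring. Without it, 6.8% of the proteasome genes were higher and 11.4% lower, against 12.8% and 21.1% of all genes. Psmb6 (0.52), Psmd11 (0.53), and Psmg4 (0.53) were then no longer called, and Psma1 (-0.62) on chromosome 7 and Psma3 (-0.59) on chromosome 12 were called lower.

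Psmd7, a lid subunit that pairs with Psmd14, was the one proteasome gene on chromosome 8. It was at 106 FPKM in MEF, 296 in V6.5, 139 in iPSC, 229 in NTC, and 197 in shGldc. Its ratio was 1.23 in V6.5 over MEF but 0.08 in iPSC over MEF, and -1.13 in iPSC over V6.5. The other 531 genes of chromosome 8 had a median of 0.61 in V6.5 over MEF, the highest of any chromosome, with 51.2% called higher and 19.4% lower. In iPSC over V6.5, 502 genes of chromosome 8 had a median of -0.44, the lowest of any chromosome, with 39.2% called lower and 5.6% higher. In NTC over V6.5, their median was 0.11. Centred on the other genes of its own chromosome, Psmd7 had ratios of 0.62 and -0.69 in place of 1.23 and -1.13. No measure of DNA copy number was used here, and the part of a chromosome-wide difference in the values of Psmd7 and of the genes on chromosome 11 was not tested. With every gene centred in this way, the calls were 11 higher and 3 lower in V6.5 over MEF and 10 higher and 3 lower in iPSC over MEF. All genes centred likewise were called higher for 34.3% and lower for 35.2% in V6.5 over MEF, and for 35.3% and 33.5% in iPSC over MEF. The genes called changed. In V6.5, Psmc5 (0.58 after rounding), Psmd11 (0.54), and Psme4 (0.56) were no longer called higher and Psma2 (0.67), Psma6 (0.64), and Psmd4 (0.65) were, and Psmd9 (-0.59) was called lower. In iPSC, Psmd11 (0.48) and Psme3 (0.51) were no longer called. In iPSC over V6.5, Psma8 (0.52) and Psmc6 (-0.56) were no longer called, and Psmd4 (0.59) was called higher and Psme4 (-0.64) lower.

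**Figure D3:**
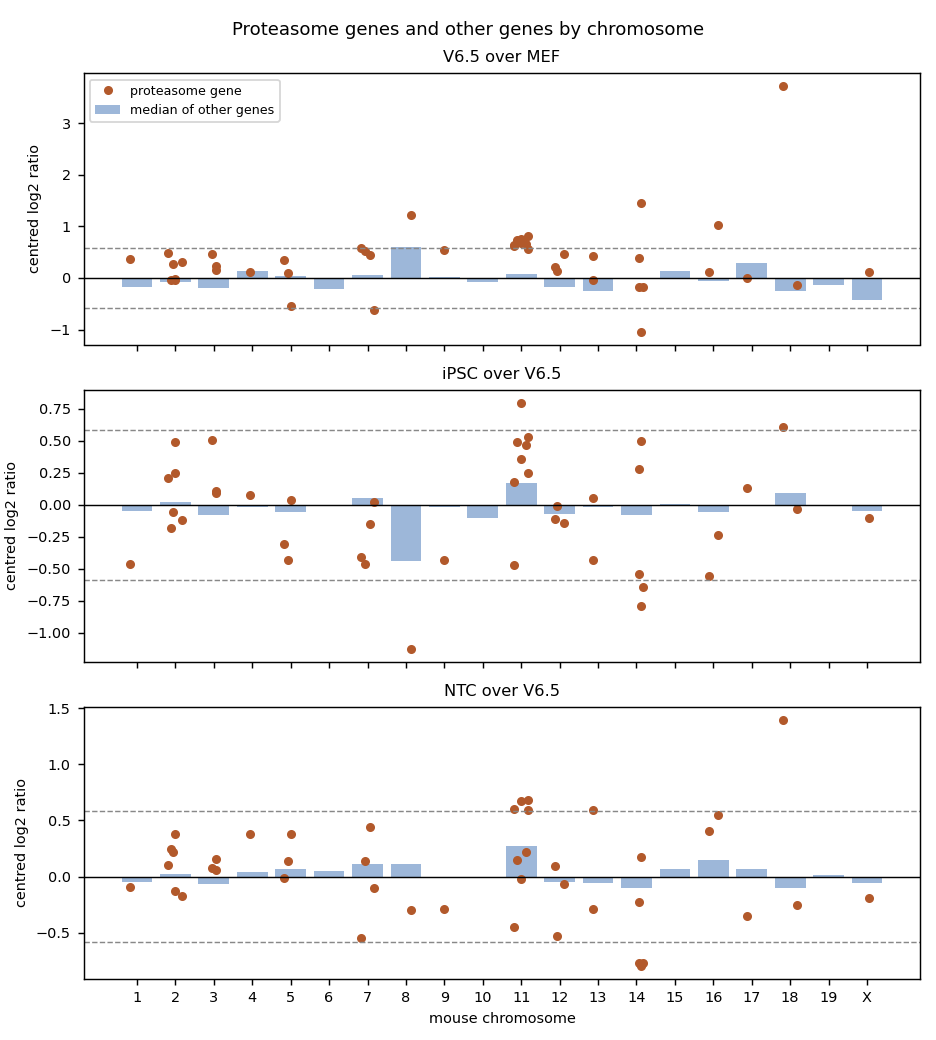
Centred log2 ratio by mouse chromosome for V6.5 over MEF, iPSC over V6.5, and NTC over V6.5; points are the 44 proteasome genes, bars the median of all other genes of the chromosome that reached 5 FPKM in either library, and dashed lines 1.5-fold. The 8 genes on chromosome 11 lay between 0.57 and 0.82 in V6.5 over MEF, and the bar of chromosome 8 was at 0.61 there and at -0.44 in iPSC over V6.5.

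The constitutive catalytic genes can be set beside their immunoproteasome counterparts, which replace them in the core of immune cells and after interferon. Psmb8, the counterpart of Psmb5, was at 14.5 FPKM in MEF, 1.51 in V6.5, 0.693 in iPSC, 0.0565 in NTC, and 0.941 in shGldc. Psmb5 thus held 88.42% of the sum of both in MEF and 99.58% to 99.99% in the stem cell libraries. Psmb10, the counterpart of Psmb7, was at 27.8 FPKM in MEF, 11.1 in V6.5, 6.65 in iPSC, 16.4 in NTC, and 18.0 in shGldc, so that Psmb7 held 86.57% in MEF and 94.91% to 98.16% in the others. For these pairs, the constitutive gene was higher and its counterpart lower in stem cells. Psmb9, the counterpart of Psmb6, did not follow, at 2.95 FPKM in MEF, 5.85 in V6.5, 7.93 in iPSC, 5.14 in NTC, and 0.855 in shGldc, and Psmb6 held 98.45% to 99.88% throughout. Psmb9 overlaps Tap1 in the annotation, and Tap1 was at 2.08 FPKM in NTC and 12.5 in shGldc, where Psmb9 had a ratio of -2.49. Whether the counting used strand is not given in the sources used here, so reads of these overlapping genes may not be told apart. Immune cells express this set, and the macrophage and interferon-stimulated markers were higher in MEF (177 and 660 FPKM), but their part in the levels of Psmb8 and Psmb10 was not tested. In bulk RNA, more cells of a kind and more RNA per cell cannot be told apart.

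**Figure D4:**
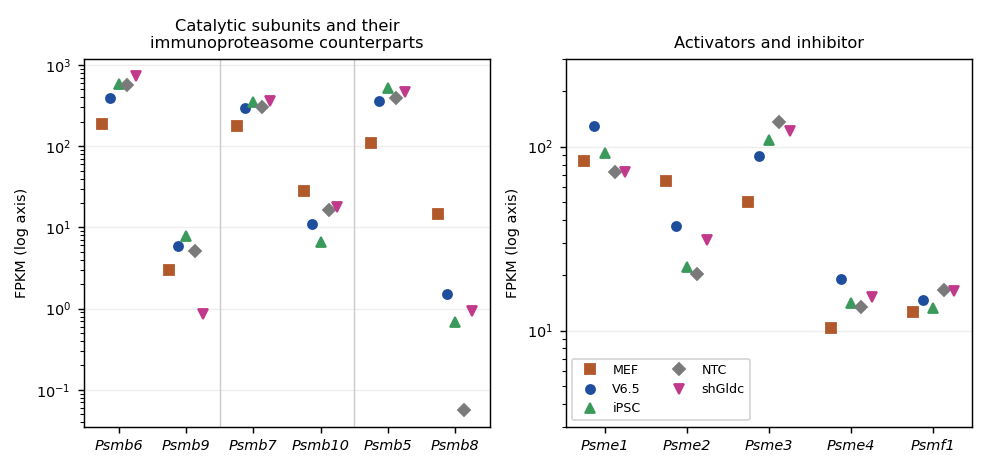
FPKM (log axis) of the catalytic genes Psmb6, Psmb7, and Psmb5 beside Psmb9, Psmb10, and Psmb8 (left) and of the activators and inhibitor (right), 1 point per library. Psmb8 was at 14.5 FPKM in MEF and at most at 1.51 in the stem cell libraries, and Psme2 lay above Psme3 in MEF only.

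Of the 5 activator and inhibitor genes, 1 was called higher and 1 lower in each comparison with MEF. Of all genes, 34.3% were called higher and 35.4% lower in V6.5, and 34.0% and 34.8% in iPSC. Psme1 and Psme2 encode PA28alpha and PA28beta, which form the interferon-inducible cap of the core, and lie close together at chr14:55578123-55581529 and chr14:55587441-55591113. Psme2 was at 65.0 FPKM in MEF, 37.2 in V6.5, 22.1 in iPSC, 20.3 in NTC, and 30.9 in shGldc, so every stem cell library lay below MEF, with ratios of -1.05 and -1.87. Its sequence is shared for 28.3% of 50-nt stretches, mainly with Psme2b, which was at 18.5 FPKM in MEF and 5.40 to 12.3 in the stem cell libraries. Psme1, its partner, was at 84.0 FPKM in MEF, 130 in V6.5, 92.5 in iPSC, 73.2 in NTC, and 73.1 in shGldc and was not called over MEF (0.39 and -0.17).

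Psme3 encodes PA28gamma, the nuclear cap. It was at 50.2 FPKM in MEF, 88.6 in V6.5, 109 in iPSC, 136 in NTC, and 122 in shGldc, above MEF in every stem cell library, with ratios of 0.57 and 0.80. Centred by chromosome, the latter was 0.51 and not called. Psme3 held 43.6% of the sum of Psme3 and Psme2 in MEF and 70.45% in V6.5, 83.09% in iPSC, 87.01% in NTC, and 79.79% in shGldc. Psme1, the partner of Psme2, is not part of this sum. It lay above Psme3 in MEF and V6.5 and below it in iPSC, NTC, and shGldc. Psme4, which encodes the single-chain cap PA200, was at 10.3 FPKM in MEF, 19.1 in V6.5, 14.2 in iPSC, 13.4 in NTC, and 15.2 in shGldc, with ratios of 0.64 and 0.14, of which the first was 0.56 and not called when centred by chromosome. Psmf1, which encodes the inhibitor PI31, lay between 12.7 and 16.6 FPKM in all libraries and was not called (-0.04 and -0.25).

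Between the pluripotent lines, few proteasome genes passed the limit. In iPSC over V6.5, the median was -0.02, and 2 of 44 genes (4.5%) were called higher and 3 (6.8%) lower, where 19.2% of all genes were called higher and 18.3% lower. In either direction, these were 11.4% and 37.6%. The fibroblast markers summed to 48.8 FPKM in V6.5 (Col1a1 at 20.5), 12.8 in iPSC, and 11.3 in NTC. Of 5 early lineage markers kept in each of iPSC and NTC over V6.5, 3 were called higher and 2 lower. Among them were Cdx2 (3.16 and 3.95) and Sox1 (-2.18 and -2.27). The part of these markers' cells in the ratios over V6.5 was not tested. Of the proteasome genes, Psmb3 (0.80) and Psma8 (0.61) were called higher, and Psmd7 (-1.13), Psme2 (-0.79), and Psmc6 (-0.64) lower. Psma8 was not called with a pseudocount of 1 (0.52), and neither Psma8 nor Psmc6 was called when centred by chromosome. All 7 beta subunit genes had ratios above 0 (0.08 to 0.80), and 6 of the 7 alpha subunit genes other than Psma8 had ratios below 0 (down to -0.43 in Psma2 and Psma4). Psmd2 (-0.56) and Psmb6 (0.53) lay just outside the limit. In NTC over V6.5, the alpha subunit genes had a median of -0.23 and the beta subunit genes of 0.10. The genes called in iPSC over V6.5 had ratios of 1.40 (Psma8), -0.02 (Psmb3), -0.77 (Psmc6), -0.30 (Psmd7), and -0.80 (Psme2) in NTC over V6.5, which shares the V6.5 library.

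After knockdown of Gldc, 1 proteasome gene of 44 passed the limit. In shGldc over NTC, the median of the 44 genes was 0.03 with a robust SD of 0.2, against 0.53 for all genes. None was called higher and 1 lower (2.3%), where 16.3% of all genes were called higher and 15.9% lower, in either direction 32.2%. Among genes of at least 50 FPKM, 14.6% of all genes and none of 33 proteasome genes were called. Between NTC and untreated V6.5, the robust SD of the 44 genes was 0.44, against 0.59 for all genes, and 20.5% were called, against 33.6% of all genes.

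The 1 gene called was Psmd10 (chrX:140948429-140956728, minus strand), which encodes gankyrin, a chaperone of the base that also binds regulators of p53 and RB. Psmd10 was at 13.3 FPKM in MEF, 17.1 in V6.5, 16.4 in iPSC, 14.3 in NTC, and 7.84 in shGldc. The shGldc library was the lowest of all 5, and the centred ratio was -0.90. Psmd10 overlaps no other annotated gene and shares no 50-nt stretch. The other X-linked genes had a median of 0.08 in this comparison.

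The other base chaperones differed by less, with -0.40 for Psmd5 (47.5 FPKM in NTC and 36.8 in shGldc) and 0.42 for Psmd9 (19.5 and 26.9). Psme2 was just outside the limit at 0.57, from 20.3 to 30.9 FPKM, and its near copy Psme2b had a ratio of 1.14. Against untreated V6.5, these ratios were -0.24 and 0.18, so the direction of Psme2 depended on the control library. Tap1 (2.50) of the interferon-stimulated list was also higher in shGldc, and the summed list was at 30.9 FPKM in NTC and 52.4 in shGldc. The part of an interferon response in Psme2 was not tested. The 8 early lineage markers summed to 13.3 FPKM in NTC and 59.3 in shGldc, with Cdx2, Hoxb1, and Gata6 called higher, and their part in the values of proteasome genes was not tested.

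**Figure D5:**
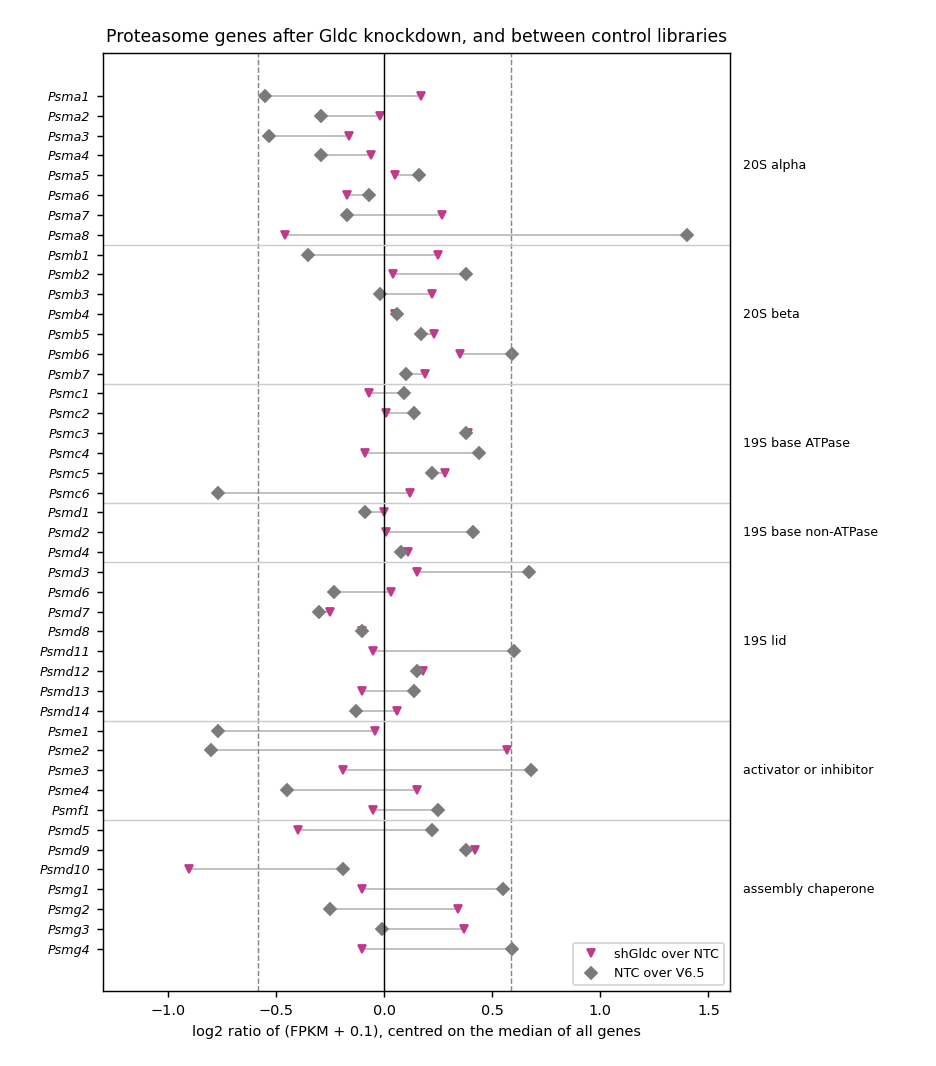
Centred log2 ratio of FPKM + 0.1 for 44 proteasome genes in shGldc over NTC (triangles) and NTC over V6.5 (diamonds), by structural group; dashed lines mark 1.5-fold. The ratios of shGldc lay between -0.90 (Psmd10) and 0.57 (Psme2), and those of NTC over V6.5, which cross tables, between -0.80 (Psme2) and 1.40 (Psma8).

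No gene of the core was called in shGldc over NTC. All 7 beta subunit genes had ratios above 0, from 0.04 (Psmb2) to 0.35 (Psmb6), with a median of 0.22. The 8 alpha subunit genes had a median of -0.04, with 3 above 0 and a range of -0.46 (Psma8) to 0.27 (Psma7). The beta median also lay above the alpha median without knockdown, at 0.10 and -0.23 in NTC over V6.5 and at 0.21 and -0.13 in iPSC over V6.5, and the difference has no test. The ATPase Psmc3 had the highest ratio of the 19S genes, at 0.39 (225 FPKM in NTC and 302 in shGldc), and Psmd7 the lowest, at -0.25. The lid genes had a median of -0.01. With untreated V6.5 in place of NTC as the control, 5 genes were higher and 4 lower, together 20.5%, against 43.2% of all genes, and Psmd10 was at -1.09. Among them were the core genes Psma8 (0.94), Psmb6 (0.93), and Psma3 (-0.69), so Psma8 lay below its level in NTC but above that in V6.5.

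The relation of the ratios to the GC content of the transcripts differed between comparisons. Across the 44 genes, Pearson's r between the GC content of the transcript and the ratio was 0.41 in shGldc over NTC (-0.06 over 11524 genes), 0.34 in NTC over V6.5 (0.09 over 11600), and 0.55 in shGldc over V6.5 (0.01 over 11786). It was -0.06 in V6.5 over MEF and 0.06 in iPSC over MEF, where all genes had 0.16 and 0.14. By rank (Spearman), the values of the proteasome genes over MEF were 0.11 and 0.15, near the 0.16 and 0.14 of all genes. In iPSC over V6.5, Pearson's r was 0.23, against -0.04 for all genes. The GC content was 55.8% in Psmb6 and 58.3% in Psmd3, which were high in NTC and shGldc, and 37.0% in Psmc6 and 40.8% in Psma3, which were low there. Other genes went against this, such as Psme1 (54.9%) and Psme2 (52.8%), at -0.77 and -0.80 in NTC over V6.5, and Psma8 (42.7%), at 1.40. These points share their libraries, and r describes them only. The part of GC content in the ratios was not tested.

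Genes that work with the proteasome were taken as further lists, and against MEF each had genes called in both directions. The shares called in either direction were 50% to 66.7% in V6.5 over MEF (69.7% of all genes), 30.0% to 54.5% in iPSC over MEF (68.8%), and 16.7% to 36.4% in iPSC over V6.5 (37.6%), so no list was called more often than all genes there. In shGldc over NTC (32.2%), they were 10.0% to 27.3%, but 50% (3 of 6) in the ubiquitin and E1 list. Of 12 genes of proteasome-associated factors, 2 were called higher and 4 lower in V6.5 over MEF, and 2 and 3 in iPSC over MEF. Pithd1, which encodes a protein with a PITH domain, was the highest (1.0 and 1.3), and AI314180, which encodes the adaptor ECM29, the lowest (-2.08 and -1.97). Zfand2a was called higher (0.94) and Uchl5, a deubiquitinase of the base, lower (-0.69) in iPSC over V6.5. Adrm1, the ubiquitin receptor of the base, was at 102 FPKM in MEF, 166 in V6.5, and 236 in iPSC (0.45 and 0.89), and Pomp, the maturation factor of the core, was not called (0.30 and -0.05). In shGldc over NTC, 2 were higher and none lower, namely Zfand2a (1.12), the arsenite-inducible AIRAP, and AI314180 (0.76), and Uchl5 had the lowest ratio (-0.08).

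Of 11 genes of regulators of proteasome genes, 3 were higher and 4 lower in V6.5 over MEF, and 5 and 1 in iPSC over MEF. Nfe2l1, which encodes the regulator NRF1, was at 77.8 FPKM in MEF, 44.9 in V6.5, 81.5 in iPSC, 52.2 in NTC, and 62.5 in shGldc, so V6.5 was the lowest library and was called lower (-1.04). Ddi2, the protease that activates NRF1, was at 9.99 FPKM in MEF, 25.3 in V6.5, 24.1 in iPSC, 34.2 in NTC, and 25.2 in shGldc (1.08 and 0.95 over MEF). Nfe2l3, which encodes the related NRF3, was listed at 0 in MEF and lay between 0.728 FPKM in shGldc and 1.48 in NTC elsewhere. The lowest ratios over MEF were those of Maff in V6.5 (-2.2) and Mafk in iPSC (-0.93). In iPSC over V6.5, the small Maf genes Maff (2.16), Mafg (0.99), and Mafk (0.85) were higher, as was Nfe2l1 (0.81), and these were the 4 of 11 called, while Nfyc, a subunit of NF-Y, had the lowest ratio (-0.31). In shGldc over NTC, Mafg (0.61) was higher and Nfe2l3 (-0.97) and Nfyb (-0.61) were lower.

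Of the 6 ubiquitin and E1 genes, Ubb was higher in both stem cell lines (0.91 and 0.99), at 486 FPKM in MEF, 1080 in V6.5, 1200 in iPSC, 914 in NTC, and 1680 in shGldc. Ubb and Rps27a, which encodes a fusion of ubiquitin to a ribosomal protein, were called higher in shGldc over NTC (0.84 and 1.39), and Uba6, an E1 enzyme, lower (-0.83). Uba6 was also the lowest of this list over MEF (-1.51 in V6.5 and -1.59 in iPSC). In iPSC over V6.5, Rps27a was the one gene called (1.57) and Uba1, the main E1 enzyme, the lowest (-0.23). Of the 10 genes of shuttling and extraction factors, 3 were higher and 3 lower in V6.5 over MEF and 2 and 1 in iPSC over MEF, with Ubqln4 the highest in both (1.37 and 1.71) and Sqstm1 the lowest in V6.5 (-1.61) and Ubqln2 in iPSC (-1.48). The ratios in iPSC over V6.5 ranged from -0.37 (Vcp, the segregase p97) to 1.42 (Sqstm1). Sqstm1, the autophagy receptor p62, was at 408 FPKM in MEF, 158 in V6.5, 437 in iPSC, 142 in NTC, and 248 in shGldc and was the one gene of this list called in shGldc over NTC (0.77), where Ubqln4 was the lowest (-0.17). Ubb, Rps27a, Sqstm1, Mafg, and Nfe2l1 lie on chromosome 11, whose other genes had medians of 0.16 in shGldc over NTC and 0.17 in iPSC over V6.5. In shGldc over NTC, 19.2% of these other genes were called higher and 8.0% lower. Ubb shares 48.1% and Rps27a 20.9% of its 50-nt stretches with other genes. The part of the chromosome or of shared sequence in these ratios was not tested.

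Annotation limits how far single values can be read. Of the 45 genes, 19 overlap another annotated gene, 8 share at least 10% of their 50-nt stretches with one, and 22 do neither. Beside Psmb5, Psmb3, and Psme2, the sharing genes were Psma5 (49.1%), Psmd2 (17.8%), Psma3 (15.4%), Psmc1 (14.1%), and Psma4 (11.6%). Among the 22 without either limit were Psma8, Psmb6, Psmc6, Psmd4, Psmd7, Psmd8, Psmd10, Psmd11, Psme3, and Psmg1. Over these 22, the median was 0.16 in V6.5 over MEF, in place of 0.35, and 0.14 in iPSC over MEF.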

How the data were processed

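Total RNA of 5 mouse libraries, 1 per group, was sequenced on an Illumina HiSeq instrument. Values were deposited by the authors as FPKM per gene, in separate tables of 3 and of 2 libraries. They mapped reads with TopHat2 2.1.0, assembled transcripts with StringTie 1.3.4d, and computed gene levels with Ballgown, and SAMtools 1.7 is also listed in the submitters' processing notes. These notes list mm9 and mm10, and the methods name mm10. The annotation, strand setting, and filters are not given in the sources used here.

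The proteasome genes and all gene lists were chosen with earlier results of these data known. Log2 ratios of FPKM + 0.1 were computed within a table, and for NTC and shGldc over V6.5 across the tables, over genes that reached 1 FPKM in either library and centred on their median, and genes past 1.5-fold were called. With 1 library per group, no test was run. On data simulated from NTC with counting error alone, 100.0% of genes changed 2-fold or 3-fold and 0.5% of those changed 1.25-fold were called, which tests the computation and not how far cultures differ. Depth was read from the step between low values of 5723 genes with 1 transcript. Gene positions, lengths, overlaps, and shared 50-nt stretches came from GENCODE M21 (mm10), and promoters from RefSeq.

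Named were all genes called within a table, the highest and lowest of each structural group, the catalytic, tissue-restricted, activator, and inhibitor genes, Psmd11, the extremes of each list, and the immunoproteasome genes. Others named in passing were chosen after their values were seen. Alternatives were pseudocounts of 1 and 0.01, no centring, equal FPKM sums, a minimum of 5 FPKM or none, a 2-fold limit, the mean, genes without overlap or shared sequence, and V6.5 as the control of shGldc. Centring by chromosome, dropping genes with shared sequence, and adding Mir686 to Psmb5 were chosen after seeing the data. Python 3.11.15, numpy 2.4.6, pandas 2.3.3, and matplotlib 3.10.9 were used.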

Additional observations from a re-analysis of the deposited data

How the results depend on the processing

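No paired analysis was possible because each group is 1 library. Of the medians and counts of calls, 83 values under alternatives stayed within 1.5 times the count or within 0.09 of the median, and 28 did not. No single gene that was called with the main settings changed its direction in that comparison under an alternative. Without centring, the medians over MEF were 0.60 in V6.5 and 0.45 in iPSC, with 23 genes higher and 1 lower in V6.5 and 1 lower in iPSC, and without a filter they were 0.59 and 0.45, with 23 higher and 1 lower and 1 lower. In shGldc over NTC, both gave 1 gene higher (Psme2) in place of 0. The shares of all genes called without a filter are not given here. A 2-fold limit left 4 higher and 1 lower in V6.5 over MEF, 7 and 1 in iPSC over MEF, 0 and 1 in iPSC over V6.5, and 0 lower in shGldc over NTC. The shares of all genes at this limit are not given here, so these counts cannot be set beside them. Without genes that overlap or share sequence, the V6.5 median was 0.16. Without genes that share sequence, 1 was lower in V6.5 over MEF and 1 higher in iPSC over V6.5, since Psme2 and Psmb3 were left out. A pseudocount of 1 left 1 higher in iPSC over V6.5. The mean gave 0.32 in iPSC over MEF, and centring by chromosome a median of 0.27. With V6.5 as the control, shGldc had a median of 0.12 with 5 genes higher and 4 lower, which also holds the difference between the tables, and Psme2 was at -0.24 in place of 0.57. Depth limits Psma8 in MEF and Psmb11 most, and with 1 library per group no spread between cultures is known.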
